A study of Mus musculus with 12 samples.

Results

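The 10 genes described here belong to the YAP and TEAD pathway: the target genes Ccn1, Ccn2, Ankrd1, Amotl2, Lats2, Ajuba and Axl, the coactivators Yap1 and Wwtr1 (the gene of TAZ), and the DNA-binding factor Tead1. They were taken by symbol from the deposited table of raw counts, which lists 33246 genes. All 10 passed the expression filter and were tested together with the other genes, 14542 in all.

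RNA was sequenced from fibroblasts isolated from the ears of male and female C57BL/6 mice, 1 month old, and used at passage 2. The cells were seeded on alginate gels that carried an RGD adhesion peptide and were collected after 48 h in the same serum-containing medium. There were 4 groups of 3 samples: 2-kPa elastic, 2-kPa viscoelastic, 20-kPa elastic and 20-kPa viscoelastic gels, where kPa gives the stiffness of the gel. Elastic gels were crosslinked covalently, and the viscoelastic gels, of the slow-relaxing kind, were crosslinked with calcium, so that viscoelasticity and the chemistry of the crosslinks cannot be told apart. The study calls the samples biological replicates. Which animals or cultures they came from is not given in the sources used here, so the p-values measure the spread between these samples.

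YAP and TAZ are coactivators without a DNA-binding domain of their own. When the kinases of the Hippo pathway are active, LATS kinases phosphorylate YAP and TAZ, which are then held in the cytoplasm or degraded. In fibroblasts that spread on stiff surfaces, YAP and TAZ are known to enter the nucleus, where they bind TEAD factors and raise the transcription of genes such as Ccn1, Ccn2 and Ankrd1. Some of the targets feed back on the pathway, among them Lats2 and Amotl2. RNA counts measure the transcripts of these genes and not the phosphorylation or the location of YAP and TAZ.

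The gene counts of a sample summed to 36626221 in the shallowest and 43612804 in the deepest library, with TMM scaling factors from 0.968 to 1.03, and replicates of a typical gene spread by 7.5% beyond the error of counting. All 9 fibroblast markers listed were detected in every sample, with summed levels from 23722.5 to 29260.1 CPM (counts relative to the library size, scaled by TMM). The cartilage genes Col2a1 (2396 to 3471 CPM), Acan (854 to 1611 CPM) and Sox9 (367 to 535 CPM) were also high in every sample, whereas their fellow marker Matn1 stayed at or below 0.187 CPM. Summed, these 4 markers ran from 4134 to 5266 CPM on 2-kPa elastic and 4002 to 5016 CPM on 2-kPa viscoelastic gels. The sum was lower on 20-kPa elastic gels, at 3792 to 3883 CPM, and spanned 3801 to 5035 CPM on 20-kPa viscoelastic gels. Of 3 markers of smooth muscle and pericytes, Cspg4 made up nearly the whole sum, whose range lay lower on viscoelastic gels: 463 to 543 CPM on 2-kPa elastic gels, 315 to 328 on 2-kPa viscoelastic, 367 to 502 on 20-kPa elastic and 274 to 329.6 on 20-kPa viscoelastic gels. The part of these shifts in the results below was not tested, and in RNA of whole cultures fewer cells of a type and less RNA per cell cannot be told apart. The defining skeletal muscle genes Myod1 and Myog were at or near 0, at most 0.0502 and 0.0720 CPM.

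The genes differ widely in abundance. Per kilobase of exon, with CPM averaged over the 12 samples, Ccn2 stood highest of the 10 genes at 1044 CPM per kb and above 99.9% of the tested genes. Ccn1 followed at 550.4 CPM per kb. Axl, Wwtr1 and Amotl2 lay close together at 60.3, 50.3 and 50.3 CPM per kb, followed by Tead1 at 23.9, Yap1 at 18.2, Ajuba at 11.8 and Lats2 at 9.93. Ankrd1 was lowest at 2.16 CPM per kb, above 33.7% of the tested genes, and its 12 values rest on 138 to 481 counts each. No other member had fewer than 1499 counts in a sample. The highest sample exceeded the lowest by 3.61 times for Ankrd1, 2.42 times for Ccn1 and 2.03 times for Ccn2 and for Axl, but only by 1.09 times for Yap1 and 1.16 times for Wwtr1.

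**Figure D1:**
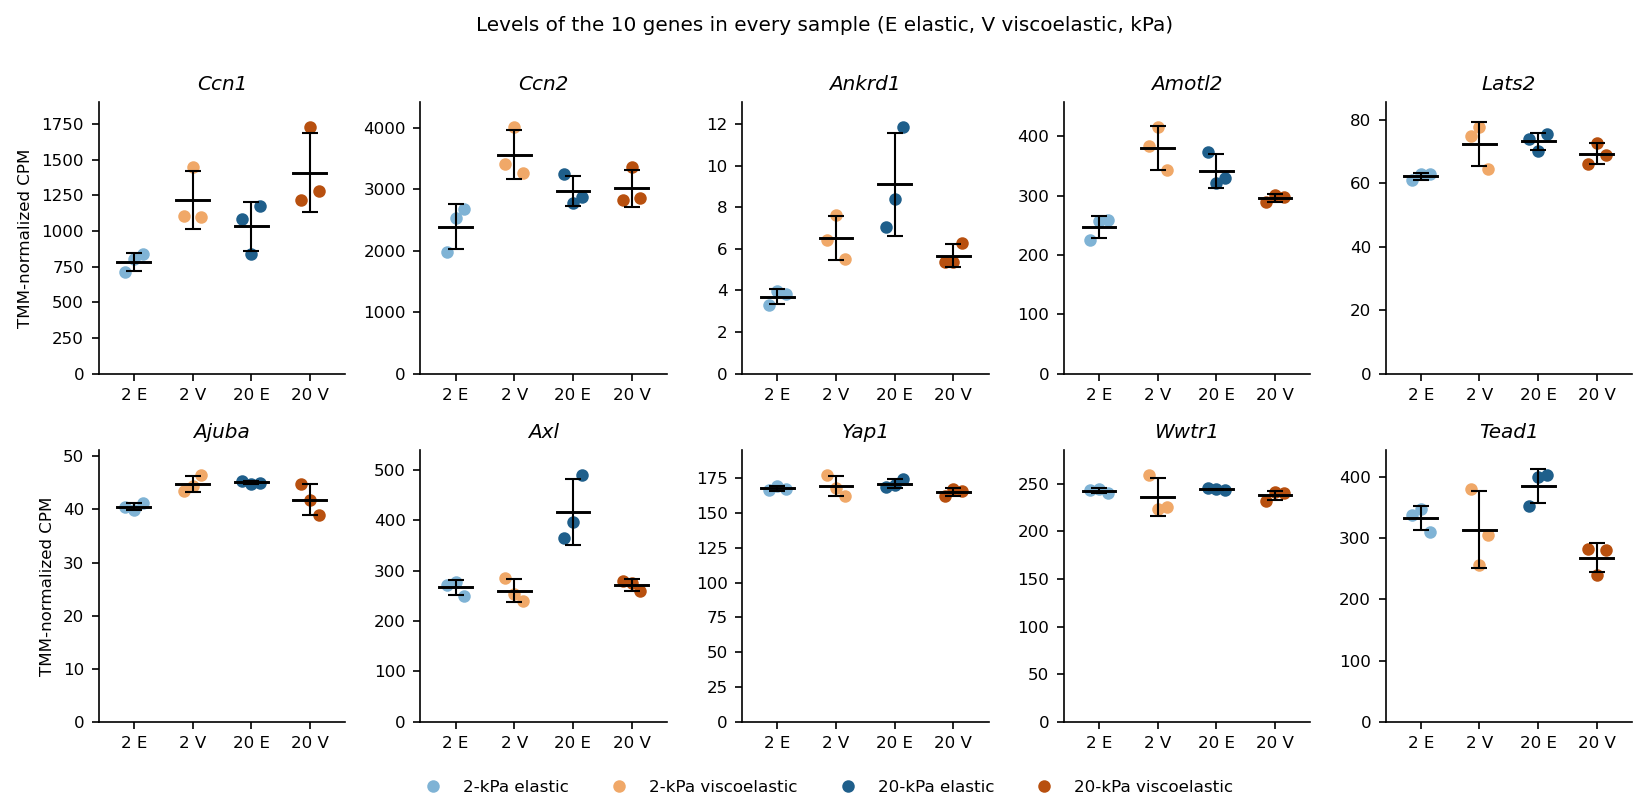
TMM-normalized CPM (vertical axis, linear from 0) of each of the 10 genes in the 12 samples, grouped on the horizontal axis as 2-kPa elastic (2 E), 2-kPa viscoelastic (2 V), 20-kPa elastic (20 E) and 20-kPa viscoelastic (20 V) gels; points are samples, long bars means and error bars 1 SD (n = 3). The 2-kPa elastic gels hold the lowest mean of Ccn1, Ccn2, Ankrd1, Amotl2, Lats2 and Ajuba, while Axl is raised on 20-kPa elastic gels alone and Yap1 stays between 162 and 177 CPM.

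TEAD factors recognise the hexamer CATTCC, which reads GGAATG on the other strand. To show where these letters stand near the genes, windows from 250 bases before to 50 bases after each start site were searched on both strands in RefSeq's table for GRCm38.p6, which is the mm10 build. The table held 8 of the 10 genes. Ccn2 and Tead1 were not matched. Each of the 8 genes held the hexamer in at least 1 window, as did 16.6% of all 27025 genes in the table, and 9 of their 10 windows held it, against 14.7% of all 32851 windows. A match describes the letters only and does not show binding. The upstream stretches of Ccn1, Axl and Yap1 are printed because the genes carry the same letters and yet behaved differently on the gels, and capitals mark the hexamer. They lie at chr3:145649986-145650235 for Ccn1, chr7:25788734-25788983 for Axl and chr9:8004597-8004846 for Yap1, each on the minus strand and each ending at the base before the RefSeq start site.
Ccn1: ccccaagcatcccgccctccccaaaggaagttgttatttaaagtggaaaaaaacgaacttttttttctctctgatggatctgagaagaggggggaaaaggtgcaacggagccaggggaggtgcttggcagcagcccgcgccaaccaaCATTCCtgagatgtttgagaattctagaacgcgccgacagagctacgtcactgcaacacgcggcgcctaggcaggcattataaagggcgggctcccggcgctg
Axl: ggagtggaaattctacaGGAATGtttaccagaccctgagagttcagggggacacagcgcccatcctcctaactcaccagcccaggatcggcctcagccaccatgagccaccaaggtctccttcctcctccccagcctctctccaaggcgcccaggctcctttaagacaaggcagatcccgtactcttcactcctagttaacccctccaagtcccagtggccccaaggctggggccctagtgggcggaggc
Yap1: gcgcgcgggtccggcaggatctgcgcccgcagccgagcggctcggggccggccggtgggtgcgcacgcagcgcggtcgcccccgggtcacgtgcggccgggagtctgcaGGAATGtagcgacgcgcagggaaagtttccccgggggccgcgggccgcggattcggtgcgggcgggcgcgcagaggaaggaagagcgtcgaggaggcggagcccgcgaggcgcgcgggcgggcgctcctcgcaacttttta

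The same hexamer is shown with 12 bases on either side for Ankrd1 and for 3 genes whose proteins act within the pathway. Of these 4 genes 3 rose on viscoelastic gels of 2 kPa. Axl, Yap1 and Wwtr1, which also hold the hexamer, were not called there, and a link of the hexamer to the response was not tested. Ankrd1 held it at -210 and -123 bases from its start site (chr19:36120037-36120066 and chr19:36119950-36119979, minus strand), Amotl2 at -65 (chr9:102717727-102717756, plus strand) and Lats2 at 4 bases after its start (chr14:57746102-57746131, minus strand). Ajuba held it at -186 and -164 (chr14:54577830-54577859 and chr14:54577808-54577837, minus strand), and the 2 stretches overlap. The sites of Ankrd1, Amotl2 and Lats2 fall in exons that GENCODE annotates on the same strand.
Ankrd1 at -210: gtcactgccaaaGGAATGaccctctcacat
Ankrd1 at -123: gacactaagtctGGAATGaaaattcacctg
Amotl2 at -65: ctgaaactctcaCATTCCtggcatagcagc
Lats2 at 4: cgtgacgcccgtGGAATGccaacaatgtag
Ajuba at -186: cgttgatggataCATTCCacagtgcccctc
Ajuba at -164: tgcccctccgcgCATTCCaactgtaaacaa

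**Figure D2:**
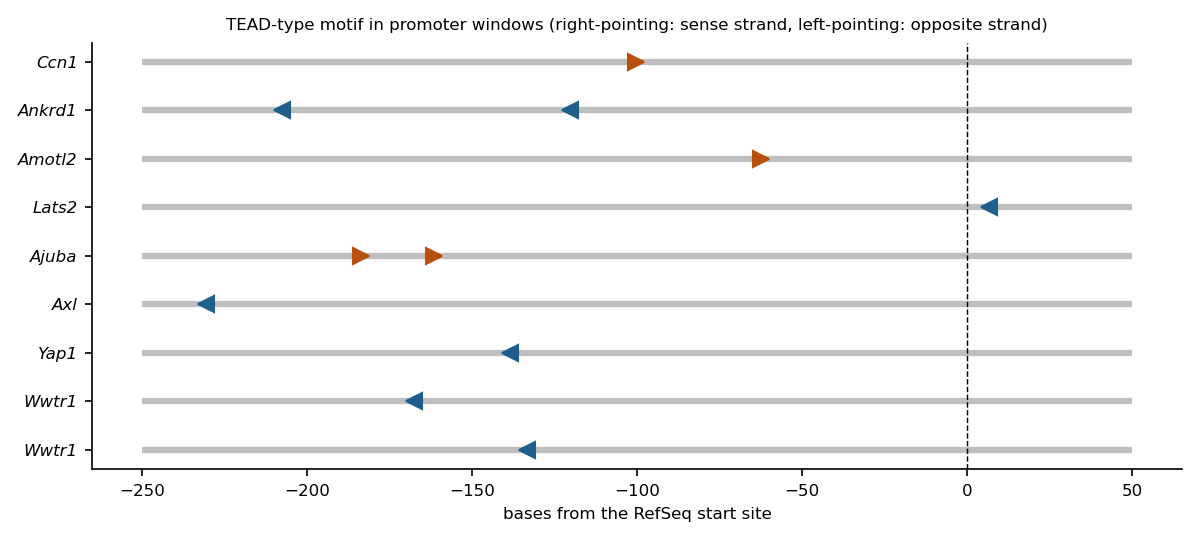
Positions of the hexamer in the RefSeq promoter windows that held it, in bases from the start site (horizontal axis, dashed line at 0), with 1 row for each window; triangles pointing right stand for CATTCC on the strand of the gene and those pointing left for GGAATG. The 2 rows of Wwtr1 show the same site from 2 start sites, at -170 and -136, and the distances over all rows run from -233 for Axl to 4 for Lats2.

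The design asks for the effect of viscoelasticity at each stiffness and for that of stiffness on each material. On the soft gels of 2 kPa 5 of the 10 genes rose on the viscoelastic material, Ccn1, Ccn2, Ankrd1, Amotl2 and Lats2, and 0 fell, where 8.77% of the tested genes were called higher and 11.1% lower (19.9% in all) at a Benjamini-Hochberg (BH) adjusted p under 0.05. With total counts in place of TMM the split of all genes turned, to 1675 higher and 1258 lower. At an unadjusted p under 0.05 edgeR gave 6 members higher and 0 lower, beside 15.3% and 18.9% of tested genes, and DESeq2, at its adjusted p, called 5 higher and 0 lower, beside 9.87% of the genes it tested higher (1399 higher and 1696 lower of 14173). The median log2 fold change of the 10 genes was 0.18, against -7.47e-05 over all tested genes. Samples of both groups did not overlap for 6 members, while this held for 36.3% of tested genes.

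At 20 kPa the same change of material gave another picture. Of the 10 genes, 1 rose (Ccn1) and 3 fell (Ankrd1, Axl and Tead1) on viscoelastic gels, beside 17.4% of tested genes called higher and 16.1% lower (33.5% in all). With total counts the split of all genes was 2937 higher and 1901 lower, and with DESeq2 size factors 2339 higher and 2490 lower. Samples did not overlap for 8 members and for 49.9% of all tested genes. DESeq2 called 0 members higher and 4 lower, since Ccn1 missed and Amotl2 passed its threshold, beside 16.9% and 18.7% of the genes it tested. The median of the members was -0.094, against 0.017 over all tested genes.

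On elastic gels 4 members rose from 2 to 20 kPa, Ankrd1, Axl, Amotl2 and Lats2, and 0 fell, where 6.81% of tested genes were called higher and 7.14% lower (14.0% in all), a split that became 1094 higher and 917 lower with total counts and 1069 and 976 with DESeq2 size factors. At an unadjusted p under 0.05 edgeR gave 7 members higher and 0 lower, beside 14.1% and 14.7% of tested genes, and DESeq2 called 5 higher and 0 lower, beside 8.64% and 7.42%. The log2 fold changes of the other 6 members ran from 0.0097 for Wwtr1, which turned to -0.026 with the GC content correction, to 0.40 for Ccn1. The median was 0.28 for the members and -0.0083 over all tested genes, and the samples did not overlap for 8 members, against 35.6% of tested genes. On viscoelastic gels the same step in stiffness was called for 1 member, Amotl2, which fell, where 1.58% of tested genes were called higher and 0.695% lower (2.28% in all), or 86 and 73 genes after the gene length correction. There the median of the members was -0.081 and that of all tested genes 0.0080, and samples did not overlap for 1 member and 22.3% of tested genes. Each group enters 2 of these 4 comparisons, which therefore share samples and are not independent of each other.

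**Figure D3:**
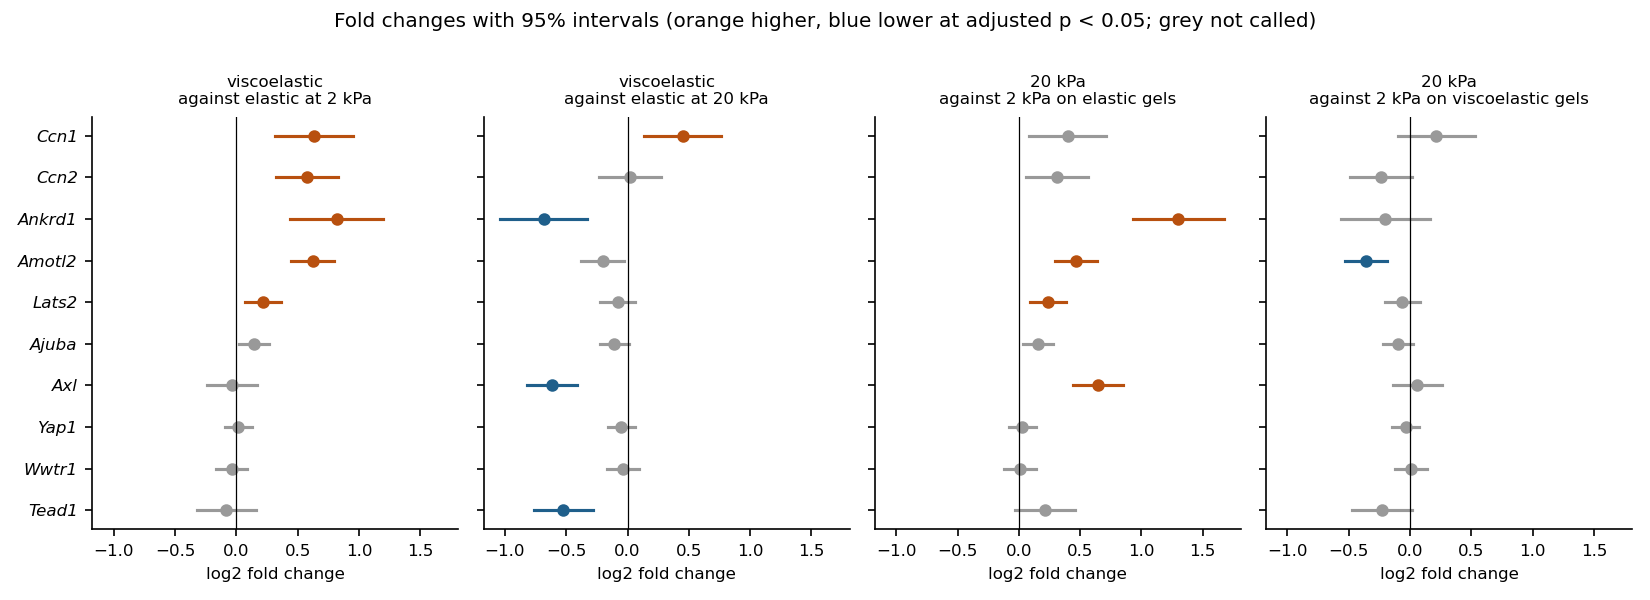
Log2 fold change (horizontal axes) of the 10 genes in the 4 comparisons of groups, with 95% intervals from the edgeR fit; orange marks genes called higher, blue genes called lower at BH-adjusted p under 0.05, and grey the rest. Ankrd1 spans the widest range, from -0.68 for viscoelastic against elastic gels at 20 kPa to 1.30 for 20 against 2 kPa on elastic gels, and Yap1 and Wwtr1 stay near 0 in each panel.

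Ccn1 and Ccn2 encode secreted matricellular proteins that are the most used readouts of YAP activity. Ccn1 (chr3:145646976-145649981, minus strand, mm10) was measured at 715, 801 and 836 CPM on 2-kPa elastic gels and at 1102, 1451 and 1098 CPM on 2-kPa viscoelastic gels. Every viscoelastic sample lay above every elastic one, and Ccn1 rose 1.55-fold (log2 fold change 0.63 ± 0.15 SE, edgeR quasi-likelihood test, adjusted p = 0.00801). On 20-kPa gels it was measured at 1086, 840.0 and 1175 CPM on the elastic and 1221, 1730.4 and 1279 CPM on the viscoelastic material. The groups again did not overlap, and Ccn1 rose 1.36-fold (0.45 ± 0.15, adjusted p = 0.0299), though replicate 2 stood apart on both sides, as the lowest elastic and the highest viscoelastic sample. The call at 20 kPa was lost without 20-kPa elastic replicate 1 (0.47, adjusted p = 0.0503), 20-kPa elastic replicate 2 (0.32, 0.137) or 20-kPa viscoelastic replicate 2 (0.27, 0.161), with DESeq2 (adjusted p = 0.0549) and after a correction for gene length (0.30, 0.129).

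Stiffness shifted Ccn1 by 0.40 ± 0.15 on elastic gels (adjusted p = 0.0876) and by 0.21 ± 0.15 on viscoelastic gels (adjusted p = 0.466), neither past the threshold. On elastic gels the 3 samples at 20 kPa nonetheless lay above the 3 at 2 kPa, by as little as 840.0 against 836 CPM, and without 20-kPa elastic replicate 2 the change was called (0.53, adjusted p = 0.0378). It was also called without 20-kPa viscoelastic replicate 2 (0.40, adjusted p = 0.0446), with every gene that had a count (0.40, 0.0051) and with the 6 samples compared alone (0.40, 0.0335). Averaged over both stiffnesses, Ccn1 rose by 0.54 ± 0.10 on viscoelastic gels (adjusted p = 0.00101), the largest such rise among the members, and the difference between its 2 stiffness effects was -0.19 ± 0.21 (adjusted p = 0.653).

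Ccn2 (chr10:24595442-24598683, plus strand) was the most abundant member. Its levels were 1978, 2527 and 2675 CPM on 2-kPa elastic gels and 3406, 4015 and 3268 CPM on 2-kPa viscoelastic gels. The groups lay well apart, with a 1.49-fold rise (0.57 ± 0.12, adjusted p = 0.0040). At 20 kPa the elastic samples (3251, 2781 and 2883 CPM) and the viscoelastic samples (2827, 3360.1 and 2862 CPM) overlapped, and the log2 fold change of 0.022 ± 0.12 had a 95% interval from -0.23 to 0.27 (adjusted p = 0.906). Going from 2 to 20 kPa gave 0.31 ± 0.12 on elastic gels (adjusted p = 0.0953), with no overlap between the groups, and -0.24 ± 0.12 on viscoelastic gels (adjusted p = 0.290). DESeq2 called the former (adjusted p = 0.0291). A part of Ccn2, 23.2% of its exon bases, is shared with the opposite-strand transcript Gm15270, and the strand setting of the counting is not given in the sources used here.

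Ankrd1 (chr19:36111961-36120099, minus strand), which encodes an ankyrin repeat protein first known from stretched heart muscle, had the widest swings of the 10 genes. It stood at 3.29, 3.97 and 3.82 CPM on 2-kPa elastic gels, 6.40, 7.61 and 5.51 CPM on 2-kPa viscoelastic, 7.05, 8.42 and 11.9 CPM on 20-kPa elastic gels and 5.36, 5.34 and 6.30 CPM on 20-kPa viscoelastic gels. The 2-kPa elastic samples were thus the lowest and, but for an overlap of replicate 1 with the 2-kPa viscoelastic range, the 20-kPa elastic samples the highest. Viscoelasticity raised Ankrd1 1.77-fold at 2 kPa (0.82 ± 0.18, adjusted p = 0.00537) and lowered it to 0.623 times at 20 kPa (-0.68 ± 0.17, adjusted p = 0.0060). The fall at 20 kPa leaned on 20-kPa elastic replicate 3, the highest sample, without which it was -0.45 (adjusted p = 0.0352). Stiffness raised it 2.47-fold on elastic gels (1.30 ± 0.17, adjusted p = 0.000269) and gave -0.20 ± 0.17 on viscoelastic gels (adjusted p = 0.562).

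Amotl2, Lats2 and Ajuba act on the pathway itself. Amotl2 (chr9:102716672-102733418, plus strand) encodes a motin, which binds YAP and favours LATS activity. It was measured at 225, 257 and 259 CPM on 2-kPa elastic gels, 383, 415 and 342 CPM on 2-kPa viscoelastic, 373, 321 and 329 CPM on 20-kPa elastic gels and 289, 301 and 298 CPM on 20-kPa viscoelastic gels. No 2 groups overlapped except 2-kPa viscoelastic with 20-kPa elastic gels, and the 3 samples on 20-kPa viscoelastic gels were the tightest, within 2.26% (coefficient of variation). Amotl2 rose 1.54-fold with viscoelasticity at 2 kPa (0.62 ± 0.082, adjusted p = 0.000193) and 1.38-fold with stiffness on elastic gels (0.47 ± 0.081, adjusted p = 0.0018). At 20 kPa the viscoelastic samples lay below the elastic ones, at -0.20 ± 0.081 (adjusted p = 0.0654). DESeq2 called that fall (adjusted p = 0.0278).

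With stiffness on viscoelastic gels Amotl2 fell to 0.779 times (-0.36 ± 0.081, adjusted p = 0.0363). This call sits close to the threshold. It was lost without replicate 2 of the 2-kPa elastic gels (adjusted p = 0.053), replicate 2 of the 20-kPa elastic gels (0.0504), replicate 1 (0.0614) or 2 (0.0729) of the 2-kPa viscoelastic gels and replicate 1 (0.119), 2 (0.0544) or 3 (0.140) of the 20-kPa viscoelastic gels, with values from -0.37 to -0.29, and when the 6 samples compared were fitted alone (adjusted p = 0.0919).

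Lats2 (chr14:57689662-57758388, minus strand), the LATS kinase that is itself a YAP target, moved less. Its levels were 60.8, 62.7 and 62.8 CPM on 2-kPa elastic gels, 74.9, 77.7 and 64.3 CPM on 2-kPa viscoelastic, 74.0, 70.2 and 75.5 CPM on 20-kPa elastic gels and 66.2, 72.7 and 69.0 CPM on 20-kPa viscoelastic gels. The 2-kPa elastic samples were lower than all 9 others, and the other 3 groups overlapped each other. Lats2 rose 1.16-fold with viscoelasticity at 2 kPa (0.22 ± 0.068, adjusted p = 0.0338) and 1.18-fold with stiffness on elastic gels (0.24 ± 0.068, adjusted p = 0.0301). Of its exon bases 42.4% are shared with the same-strand gene Gm49361. No gene of the deposited counts was matched to Gm49361, and whether the overlap affected the level of Lats2 was not tested.

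Both calls of Lats2 depend on single samples. At 2 kPa the call was lost without any 1 of the 2-kPa elastic replicates 1, 2 and 3 (0.20, 0.23 and 0.23) or without 2-kPa viscoelastic replicate 1 (0.19) or 2 (0.16), with adjusted p from 0.0627 to 0.119, and when the 6 samples compared were fitted alone (adjusted p = 0.0651). On elastic gels it was lost without 2-kPa elastic replicate 1, 2 or 3 (0.22, 0.24 and 0.25) or 20-kPa elastic replicate 1 (0.25) or 3 (0.21). At 20 kPa the viscoelastic effect on Lats2 was -0.080 ± 0.068 (adjusted p = 0.384).

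Ajuba (chr14:54567472-54577558, minus strand) encodes a LIM protein that binds and inhibits LATS kinases. It stood at 40.5, 39.9 and 41.2 CPM on 2-kPa elastic gels, 43.5, 44.5 and 46.5 CPM on 2-kPa viscoelastic, 45.4, 44.8 and 45.0 CPM on 20-kPa elastic gels and 44.8, 41.8 and 38.9 CPM on 20-kPa viscoelastic gels. It was not called in any of the 4 comparisons, although the groups did not overlap in 3 of them, where this held for 35.6% to 49.9% of tested genes. The values were 0.15 ± 0.057 (adjusted p = 0.0842) for viscoelasticity at 2 kPa, 0.15 ± 0.057 (0.0881) for the step in stiffness on elastic gels, -0.11 ± 0.057 (0.160) for the change of material at 20 kPa and -0.10 ± 0.057 (0.367) for stiffness on viscoelastic gels. The GC content correction gave a call at 2 kPa (0.17, adjusted p = 0.0305) and for stiffness on elastic gels (0.20, 0.0171), the latter also with the replicate block and the length correction added (0.20, 0.0335).

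Axl (chr7:25757273-25788705, minus strand), a receptor tyrosine kinase for GAS6, set 20-kPa elastic gels apart from the rest. Its levels were 272, 277 and 250.2 CPM on 2-kPa elastic gels, 286, 254 and 241 CPM on 2-kPa viscoelastic and 279, 276 and 259 CPM on 20-kPa viscoelastic gels, which overlapped, but 364, 397 and 489 CPM on 20-kPa elastic gels. Stiffness raised it 1.56-fold on elastic gels (0.64 ± 0.096, adjusted p = 0.000573), and at 20 kPa it fell to 0.651 times on the viscoelastic material (-0.62 ± 0.096, adjusted p = 0.00033). Viscoelasticity at 2 kPa gave -0.035 ± 0.095 (95% interval -0.24 to 0.17, adjusted p = 0.828), and stiffness on viscoelastic gels 0.061 ± 0.095 (-0.14 to 0.26, adjusted p = 0.780).

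The coactivators themselves changed little in transcript level. Yap1 (chr9:7931999-8004596, minus strand) was measured at 166, 169 and 167 CPM on 2-kPa elastic gels, 177, 168 and 162 CPM on 2-kPa viscoelastic, 168, 169.9 and 174 CPM on 20-kPa elastic gels and 162, 167 and 166 CPM on 20-kPa viscoelastic gels. Wwtr1 (chr3:57455649-57575910, minus strand) was measured at 244, 245 and 240.0 CPM, 259, 224 and 226 CPM, 245, 244 and 244 CPM, and 232, 242 and 240.0 CPM in the same order of groups. No comparison passed the test for either gene, and the largest log2 fold change of the 4 was -0.051 for Yap1 and -0.039 for Wwtr1. The 95% intervals over the 4 comparisons stayed within -0.16 to 0.14 for Yap1 and -0.17 to 0.14 for Wwtr1. The 20-kPa viscoelastic samples lay below the 20-kPa elastic ones without overlap for both genes, though groups did not overlap for 49.9% of tested genes in this comparison.

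Tead1 (chr7:112679318-112906807, plus strand), the TEAD factor among the members, was measured at 338, 348 and 311 CPM on 2-kPa elastic gels and at 380.4, 257 and 305 CPM on 2-kPa viscoelastic gels, which enclosed the elastic range (-0.082 ± 0.11, adjusted p = 0.652). On 20-kPa gels the elastic samples held 353, 399.8 and 403 CPM and the viscoelastic samples 282, 240.5 and 281 CPM. These groups did not overlap, and Tead1 fell to 0.695 times on viscoelastic gels (-0.52 ± 0.11, adjusted p = 0.00297). Stiffness gave 0.21 ± 0.11 on elastic gels (adjusted p = 0.231) and -0.23 ± 0.11 on viscoelastic gels (adjusted p = 0.292), neither past the threshold. The value on viscoelastic gels was -0.068, -0.36 and -0.16 without 2-kPa viscoelastic replicate 1, 2-kPa viscoelastic replicate 2 and 20-kPa viscoelastic replicate 2, again not called.

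Averaged over both stiffnesses, viscoelasticity raised 3 members and lowered 2, where 19.6% of tested genes were called higher and 20.4% lower (40.0% in all). With total counts in place of TMM this split of all genes was 3538 higher and 2309 lower. Ccn1 (0.54), Ccn2 (0.30 ± 0.084, adjusted p = 0.0111) and Amotl2 (0.21 ± 0.057, adjusted p = 0.00973) rose, and Axl (-0.33 ± 0.067, adjusted p = 0.00158) and Tead1 (-0.30 ± 0.080, adjusted p = 0.00772) fell. A correction for gene length ended the call of Tead1 (-0.18, adjusted p = 0.0546). The average hides opposite effects for Ankrd1, at 0.068 ± 0.12 (adjusted p = 0.688).

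Whether the stiffness response differed between the 2 materials was tested by the interaction, the log2 fold change with stiffness on the viscoelastic gels less the one on the elastic gels. It was negative for 9 of the 10 genes, with a median of -0.37 for the members and 0.017 over all tested genes. It was called for 3, Ankrd1, Amotl2 and Axl, all of them negative, where 3.12% of tested genes were called negative and 4.45% positive (7.56% in all). The difference was -1.50 ± 0.24 for Ankrd1 (adjusted p = 0.00169), -0.83 ± 0.12 for Amotl2 (adjusted p = 0.000578) and -0.58 ± 0.13 for Axl (adjusted p = 0.0164). The remaining values were -0.55 ± 0.17 for Ccn2 (adjusted p = 0.0590), -0.30 ± 0.096 for Lats2 (0.0720), -0.25 ± 0.081 for Ajuba (0.0697), -0.44 ± 0.16 for Tead1 (0.110), -0.19 for Ccn1 and -0.065 for Yap1, with Wwtr1 at 0.00039. DESeq2 called 6 of the 10 genes, adding Ccn2, Lats2 and Ajuba, beside 4.57% of the genes it tested called negative (709 positive and 648 negative of 14173). Tead1 was called without 2-kPa viscoelastic replicate 2 (-0.57, adjusted p = 0.0171) and with every gene that had a count (-0.45, 0.0151).

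**Figure D4:**
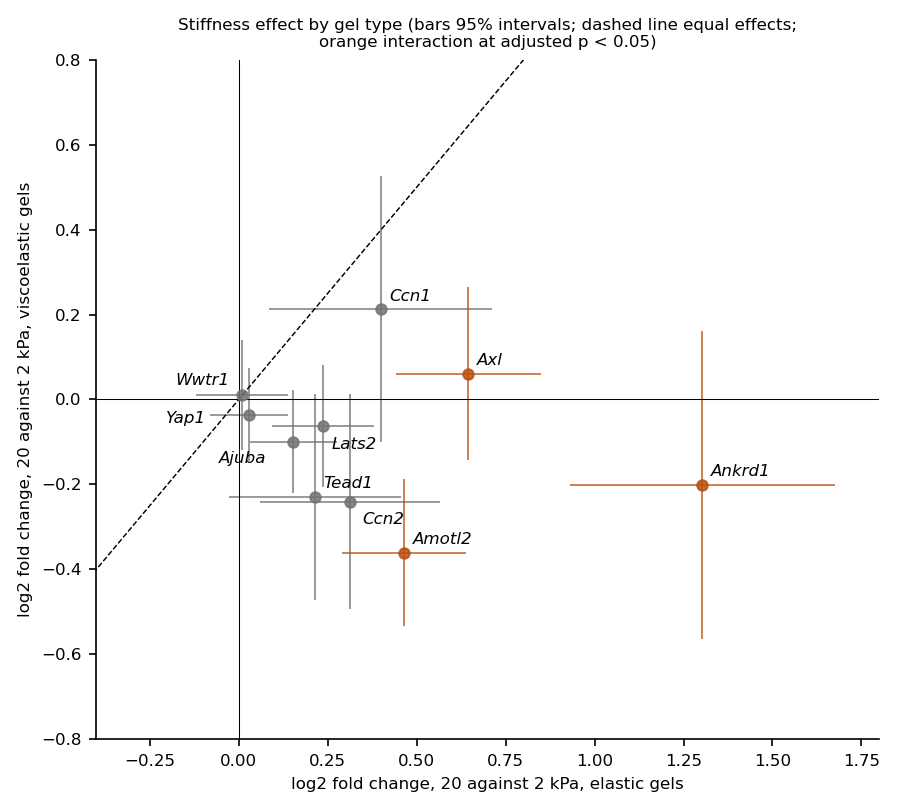
Log2 fold change from 2 to 20 kPa on elastic gels (horizontal axis) against that on viscoelastic gels (vertical axis) for the 10 genes, with 95% intervals; the dashed line marks equal effects and orange marks genes whose interaction was called. The points lie to the right of 0, from 0.0097 for Wwtr1 (-0.026 with the GC content correction) to 1.30 for Ankrd1, and all but Wwtr1 lie below the dashed line.

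The members were also compared with each other over the 12 samples, as a description, since the points share the same libraries and the same 4 groups. The pairs of members most alike were Ccn2 and Amotl2 (Pearson's r = 0.904 of log2 CPM, n = 12), Amotl2 and Lats2 (0.848), and Lats2 and Ankrd1 (0.824). Ccn1 with Ccn2 reached 0.771. Axl ran with Ankrd1 (0.718) and Tead1 (0.687) but not with Ccn1 (-0.072) or Ccn2 (-0.058). Yap1 and Wwtr1 had r = 0.731 with each other, and Ccn1 and Tead1 ran against each other at -0.636.

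Among all other tested genes, the 3 most like Ccn1 over the 12 samples were Cebpb, Cd59a and Nuak2, with Pearson's r of 0.960, 0.958 and 0.949 (Spearman's rho 0.930, 0.916 and 0.853). Nuak2, a kinase, also belongs to a published YAP and TAZ target signature. Most like Ccn2 were Ptx3, which encodes a secreted pentraxin, Fstl1, a secreted glycoprotein, and Il6, the cytokine, with r of 0.977, 0.960 and 0.942. Most like Ankrd1 were Anxa3, Maff and Tpm2, an annexin, a small MAF factor and a tropomyosin, with r of 0.969, 0.948 and 0.943. These genes were picked as the highest of all tested genes, and the values are not tests.

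With both directions pooled, kinases and scaffolds upstream of YAP were called about as often as tested genes in the 4 comparisons of groups. Most of their calls were lower. Of 19 genes listed, all tested, 4 fell and 0 rose on viscoelastic gels at 2 kPa: the motins Amot (-0.62 ± 0.097, adjusted p = 0.000636) and Amotl1 (-0.34, 0.00218), the LATS inhibitor Limd1 (-0.29, 0.00353) and the kinase Map4k4 (-0.22, 0.0373), where 11.1% of tested genes were called lower and 8.77% higher. At an unadjusted p under 0.05 edgeR gave 7 lower and 1 higher, beside 18.9% and 15.3% of tested genes. Amot stood at 53.8, 47.6 and 43.6 CPM on 2-kPa elastic gels and 32.6, 30.9 and 30.7 CPM on 2-kPa viscoelastic gels, in the direction opposite to its relative Amotl2. At 20 kPa 6 fell and 1 rose, beside 16.1% and 17.4% of tested genes, with Ptpn14 (-0.41, adjusted p = 0.00801), Mob1b (-0.37, 0.00511) and Taok1 (-0.28, 0.0122) falling and Taok3 rising (0.28, 0.00218). Stiffness on elastic gels lowered 3, Amot (-0.30, adjusted p = 0.0472), Taok2 (-0.20, 0.0254) and Limd1 (-0.19, 0.0459), beside 7.14% of tested genes. On viscoelastic gels, where 2.28% of tested genes were called, edgeR called 0 of the list, also at an unadjusted p under 0.05, which 11.7% of tested genes passed as higher and 7.36% as lower. There DESeq2 called 3 genes over all 4 lists of other genes, beside 3.74% of the genes it tested higher and 2.18% lower. The medians over the list in these 4 comparisons were -0.11, -0.11, -0.034 and -0.073, beside the medians of all tested genes given above. In the mean viscoelastic effect over both stiffnesses, 9 genes of the list were called lower and 1 higher, beside 20.4% and 19.6% of tested genes.

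Of 7 other TEAD factors and VGLL cofactors, which compete with YAP for TEAD or modify its activity, 5 were tested, since Vgll1 had no count and Vgll2 was at or near 0 in each sample. Vgll3 rose with viscoelasticity at 2 kPa (0.38 ± 0.10, adjusted p = 0.0154) and with stiffness on elastic gels (0.51 ± 0.10, adjusted p = 0.00387). It stood at 219, 231 and 216 CPM on 2-kPa elastic gels, 353, 243 and 273 CPM on 2-kPa viscoelastic, 299.9, 319 and 332 CPM on 20-kPa elastic gels and 269, 265 and 277 CPM on 20-kPa viscoelastic gels, so that the 2-kPa elastic samples were the lowest of the 12. Its interaction was called at -0.61 ± 0.14 (adjusted p = 0.0171). Vgll4, a repressor of TEAD, fell in the same 2 comparisons (-0.28, adjusted p = 0.0144, and -0.25, 0.0310). Tead2 rose with viscoelasticity at 20 kPa (0.34, adjusted p = 0.00823) and fell with stiffness on elastic gels (-0.29, 0.0378), and Tead4 fell with viscoelasticity at 20 kPa (-0.36, 0.0147). Of the 5, 1 was thus called higher and 1 lower at 2 kPa, beside 8.77% and 11.1% of tested genes. At 20 kPa it was 1 and 1, beside 17.4% and 16.1%, and for stiffness on elastic gels 1 and 2, beside 6.81% and 7.14%. For stiffness on viscoelastic gels edgeR called 0 of the 5, where 2.28% of tested genes were called. At an unadjusted p under 0.05 it gave 1 higher and 0 lower there, beside 11.7% and 7.36% of tested genes.

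Further genes of a widely used YAP and TAZ target signature, 16 of them outside the 10 members and all tested, split in both directions. With viscoelasticity at 2 kPa 4 rose and 5 fell, beside 8.77% and 11.1% of tested genes. The largest changes were those of Tgfb2 (-1.50, adjusted p = 0.000115), Dock5 (-0.78, 0.000973), Nt5e (-0.66, 0.00341) and Igfbp3 (0.66, 0.00213). At 20 kPa 4 rose and 5 fell, beside 17.4% and 16.1% of tested genes, with the largest changes in Nt5e (-0.97, adjusted p = 0.000191), Dock5 (-0.73, 0.000789), Fjx1 (0.63, 0.00375) and Myof (-0.61, 0.000185). Stiffness on elastic gels raised F3 (0.57, adjusted p = 0.00616), the gene of tissue factor, and Crim1 (0.26, 0.0248) and lowered Tgfb2 (-1.28, 0.000435) and Fjx1 (-0.53, 0.0219), beside 6.81% and 7.14% of tested genes. On viscoelastic gels Fjx1 rose (0.58, adjusted p = 0.0435) and Igfbp3 fell (-0.65, 0.0194), beside 1.58% and 0.695%. The medians over these 16 genes were -0.063, -0.097, -0.092 and -0.060 in the same order. Tgfb2, a ligand of the TGF-beta family, was high in the 2-kPa elastic samples alone, at 102, 74.3 and 50.7 CPM against 25.2 to 37.5 CPM in the 9 other samples. Ptpn14 is counted in this list and in that of the scaffolds.

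**Figure D5:**
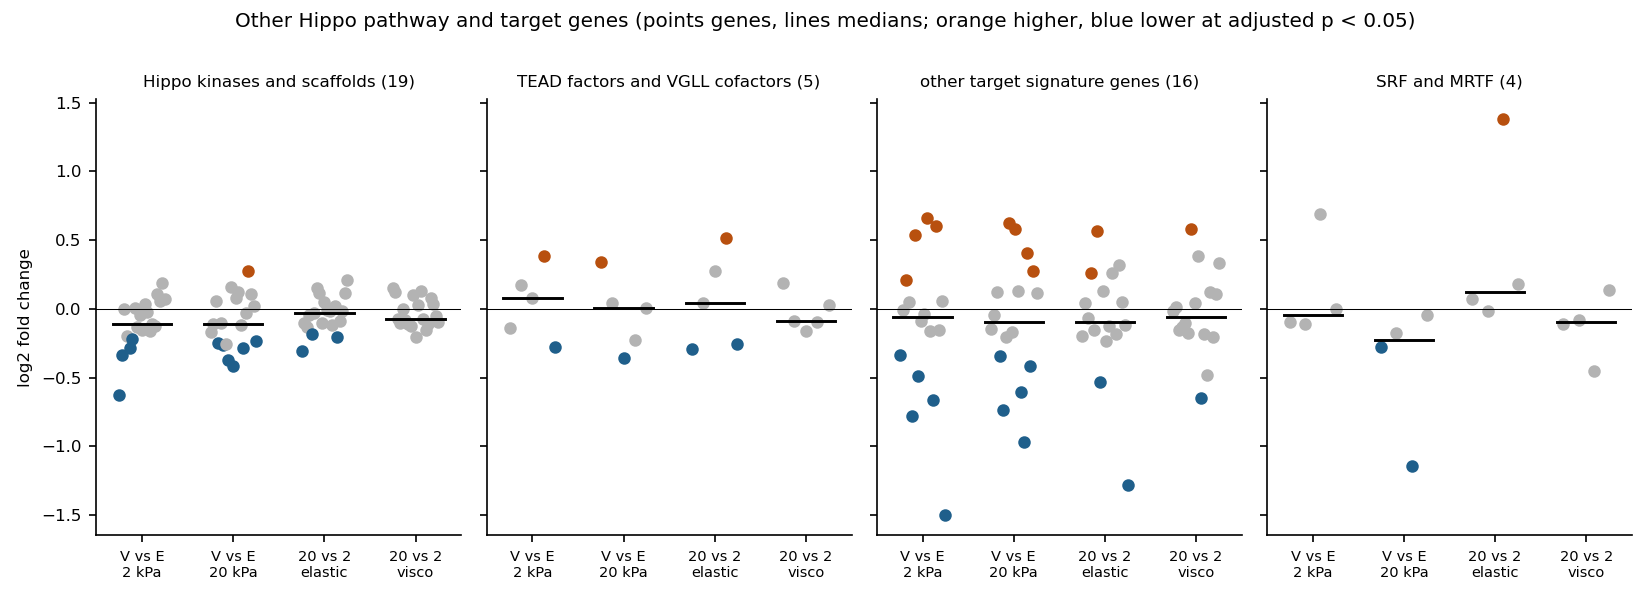
Log2 fold changes (vertical axis) of the Hippo kinases and scaffolds, the other TEAD factors and VGLL cofactors, the other signature genes and SRF with its MRTF cofactors in the 4 comparisons of groups; each point is a gene, the black line the median of the list, and orange and blue mark genes called higher and lower at BH-adjusted p under 0.05. Medians stay between -0.23 and 0.13, and single genes reach from -1.50 (Tgfb2) to 1.38 (Myocd).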

How the data were processed

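Messenger RNA of 12 samples was sequenced. Reads were trimmed (Trimmomatic), aligned to mm10 (STAR) and assigned to GENCODE genes (featureCounts) by the authors, who deposited the raw counts with no normalization. The annotation release, the strand setting and the treatment of reads with several matches are not given in the sources used here. The members and lists were chosen with earlier results of these data known.

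The test was that of edgeR 4.0.16 (R 4.3.3). A gene was kept by filterByExpr (minimum count 10, minimum total 15), which left 14542 of 33246 genes, while 10097 had no count. The 12 samples shared 1 quasi-likelihood fit, with TMM scaling and each group as a coefficient, and p-values were adjusted by BH over all tested genes, with calls at adjusted p under 0.05. Positions and exon lengths came from GENCODE M21 on mm10, to which 3600 symbols were not matched. Errors of log2 fold changes are standard errors, taken as the fold change over the root of the F statistic. Named genes are all members and, of each other list, up to 4 called genes with the largest fold change per comparison, and the 3 genes most correlated with Ccn1, Ccn2 and Ankrd1 over log2 CPM (prior count 2). Alternatives were DESeq2 1.42.0, other scaling, no filter, a stricter threshold, the compared samples alone, each sample left out, a replicate block, and corrections for length and GC content, which were known for 96% of tested genes. Depth limits Ankrd1 most.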

Additional observations from a re-analysis of the deposited data

Results flagged for a closer look

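The effect of stiffness differed between viscoelastic and elastic gels for 3 of the 10 genes, by edgeR's test of the interaction with BH adjustment over all tested genes. The log2 fold change with stiffness on the viscoelastic material less that on the elastic one was -1.50 for Ankrd1 (adjusted p = 0.00169), where the effect was 1.30 on elastic and -0.20 on viscoelastic gels. It was -0.83 for Amotl2 (adjusted p = 0.000578), which rose by 0.47 on elastic gels and fell by 0.36 on viscoelastic gels, and -0.58 for Axl (adjusted p = 0.0164), with 0.64 and 0.061. Over the alternatives the difference ran from -1.68 to -1.27 for Ankrd1, from -0.90 to -0.76 for Amotl2 and from -0.70 to -0.45 for Axl, with adjusted p of at most 0.0071, 0.0031 and 0.0481. The summed level of the smooth muscle and pericyte markers was 367 to 502 CPM on 20-kPa elastic and 274 to 329.6 CPM on 20-kPa viscoelastic gels. Nearly all of this sum was Cspg4, while Myh11 and Rgs5 reached at most 3.50 and 1.00 CPM in any sample. The part of this shift in the differences above was not tested.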

How the results depend on the processing

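Of the 22 differences of members called, 15 kept their direction and their call under every alternative, 7 lost the call under at least 1 and 0 reversed. Of the 38 not called, 10 gained a call under at least 1 alternative and 12 reversed under at least 1. The cause of the changes below was not tested. For stiffness on viscoelastic gels the members called were 0 at adjusted p under 0.01, with the 6 samples compared alone, with the gene length correction, with the replicate block and with the block, length and GC correction together, and 0 to 1 when samples were left out. For the interaction they were 6 with DESeq2 and 5 with every gene that had a count, with the length correction and with the block, length and GC correction. The genes called in the 4 other lists became 12 at 20 kPa, 3 for stiffness on elastic gels, 0 on viscoelastic gels, 15 for the mean viscoelastic effect and 2 for the interaction at adjusted p under 0.01, against 19, 11, 2, 23 and 7. They were 1 on viscoelastic gels with the 6 samples alone, the length correction or the replicate block, and for the interaction 12 with every gene and 4 with the replicate block. With samples left out they ran from 3 to 13 for stiffness on elastic gels (3, 5, 7, 7 and 4 without 2-kPa elastic replicates 1 and 2 and 20-kPa elastic replicates 1, 2 and 3), from 0 to 2 on viscoelastic gels and from 4 to 9 for the interaction, where 2-kPa elastic replicate 1 or 2-kPa viscoelastic replicate 1 left 4.

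Reversals were of uncalled values near 0. With the length correction the mean viscoelastic effect became -0.012 for Ajuba, -0.0028 for Ankrd1 and 0.073 for Yap1, and with the block, length and GC correction -0.0091 for Ankrd1 and 0.065 for Yap1, which total counts alone put at 0.019. At 2 kPa Axl became 0.028 with the combined correction and 0.0026 with total counts, and Tead1 0.035 with the length and 0.0098 with the combined correction. At 20 kPa Ccn2 became -0.0088 with the GC, -0.069 with the length and -0.089 with the combined correction, and Yap1 0.049 with the length and 0.036 with the combined one. Wwtr1 became -0.026 on elastic gels with the GC and the combined correction, -0.0067, -0.0071 and -0.0075 on viscoelastic gels with the GC correction, the combined one and the 6 samples alone, and its interaction -0.018 with DESeq2 or its size factors, -0.010 with every gene, -0.0089 with the length correction and -0.0017 with total counts. Yap1 became 0.0033 on viscoelastic gels with the length correction.

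With samples left out, values ran from -0.020 to 0.043 for Yap1, -0.24 to 0.045 for Tead1 and -0.11 to 0.018 for Axl at 2 kPa, from -0.063 to 0.074 for Ccn2 at 20 kPa, from -0.027 to 0.082 for Wwtr1 on viscoelastic gels and -0.037 to 0.072 for its interaction, and from -0.013 to 0.18 for Ankrd1 and -0.0068 to 0.044 for Ajuba in the mean viscoelastic effect. The labels do not say whether same-numbered samples share an animal or a day. Deviations of same-numbered samples correlated at 0.184, 0.308 and 0.0483 between the viscoelastic groups, and between -0.2 and 0.0908 elsewhere. With 3 samples in a group these values cannot decide whether the samples were paired. The block ended the calls of Lats2 at 2 kPa (adjusted p = 0.0524) and Amotl2 on viscoelastic gels (0.0603) and, with length and GC corrected, that of Ccn2 in the mean effect (0.0646) and of Ccn1 at 20 kPa (0.169), and lowered the genes called over the whole table on viscoelastic gels from 331 to 154. That count was 760 with DESeq2, 653 with every gene, 38 with the 6 samples alone, 159 with the length and 91 with the combined correction, and 9, 36, 127, 219, 173 and 167 without 20-kPa viscoelastic replicates 3 and 1, 2-kPa viscoelastic replicates 1 and 2, 2-kPa elastic replicate 2 and 20-kPa elastic replicate 2. Without 2-kPa elastic replicates 1 and 2 in turn the genes called were 1545 and 1924 in place of 2892 at 2 kPa and 1167 and 1341 in place of 2029 for stiffness on elastic gels, which became 1063 without 20-kPa elastic replicate 3. That replicate also took the 4866 genes at 20 kPa to 3177, and the 1100 of the interaction became 670 and 727 without 2-kPa elastic or 20-kPa viscoelastic replicate 1. At adjusted p under 0.01 the counts were 1352 at 2 kPa, 2733 at 20 kPa, 855 and 9 for stiffness on elastic and viscoelastic gels, 3730 for the mean effect (5817 at 0.05) and 400 for the interaction.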

Other observations

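SRF and its cofactors, which share targets with YAP, were taken as a further list of 4 genes, all tested. With viscoelasticity at 20 kPa 2 fell, beside 16.1% of tested genes. Mrtfa fell (-0.28 ± 0.061, edgeR adjusted p = 0.0033). Myocd, the cofactor of smooth and heart muscle, fell in the same comparison (-1.14 ± 0.38, adjusted p = 0.0297) and rose with stiffness on elastic gels (1.38 ± 0.39, adjusted p = 0.0295). Its levels were low throughout, at 0.143, 0.220 and 0.275 CPM on 2-kPa elastic gels and 0.421, 0.288 and 0.310 CPM on 2-kPa viscoelastic gels. On 20-kPa gels they were 0.327, 0.547 and 0.789 CPM on the elastic and 0.304, 0.141 and 0.301 CPM on the viscoelastic material. The latter values rest on 14, 24 and 32 counts on 20-kPa elastic and 13, 6 and 12 counts on 20-kPa viscoelastic gels. The groups at 20 kPa did not overlap, as held for 49.9% of tested genes, but their closest samples had 14 and 13 counts. For viscoelasticity at 2 kPa and for stiffness on viscoelastic gels edgeR called 0 of the 4 genes, where 19.9% and 2.28% of all tested genes were called. At an unadjusted p under 0.05 it gave 0 as well. That threshold passed 15.3% of tested genes as higher and 18.9% as lower at 2 kPa, and 11.7% and 7.36% for stiffness on viscoelastic gels.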
